A study of Caenorhabditis elegans with 2 samples.

Results

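The CCT chaperonin genes encode subunits of the chaperonin containing TCP-1, a ring-shaped chaperone of the cytosol. Members were taken from a list of 7 gene symbols: cct-1, cct-2, cct-4, cct-5, cct-6, cct-7 and cct-8. All 7 matched the gene annotation, out of 19973 protein-coding genes. The annotation holds 8 CCT subunit genes in all. The other one, cct-3, was not on the list, and its values are given beside those of the members. No measured value enters the stated choice of members. The list and the reproducible peaks nevertheless divide the 8 genes in the same way, so the count over the members is read together with cct-3.

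LIN-35 is the retinoblastoma-like pocket protein of Caenorhabditis elegans and was mapped by chromatin immunoprecipitation with sequencing in whole L1 larvae, the first larval stage, with the sexes pooled. There was 1 group of 2 biological replicates, with no second genotype, stage or treatment. The strain was YL398, which carries the mutation unc119(ed3)III and the transgene vrIs55. Within vrIs55, pGES-1, a ges-1 promoter of the kind known to be active in the gut, is placed before LIN-35::GFP FLAG. The transgene also holds the LIN-35 3'UTR and unc-119 (+), a working copy of the mutated gene. The labels give the antibody as lin-35 and the target as eGFP-lin-35, so the share of the signal that comes from the fusion in gut cells was not tested. Peak lists hold no expression values, and the tissue could not be checked against marker genes. Both replicates are labelled as biological, and the labels do not say whether they came from separate cultures.

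The CCT complex takes up newly made proteins, actin and tubulin above all, in the cavity of a double ring and releases them after they fold. Each ring is built from a full set of different subunits, and each CCT gene encodes one of these. LIN-35 acts in the DREAM complex with an E2F and DP pair and with LIN-54. E2F proteins bind GC-rich words, and LIN-54 binds the cell cycle genes homology region (CHR). HSF-1, the worm heat shock factor, binds heat shock elements, which are built from GAA units in alternating orientation, and drives chaperone genes.

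All 7 CCT members had a word of the heat shock element type within 75 bp of their LIN-35 summit, the position where the peak is highest, against 11.8% of the 3959 protein-coding genes with a LIN-35 peak at the promoter. The word itself is common, with 48.4% of all protein-coding genes holding it in the 500 bp upstream of the start, and within 50 bp of the summit the count was 2 of 7. The following 30-base stretches are shown because they carry this shared word. They are read 5′ to 3′ on the strand of the CCT gene in ce11 coordinates. Capitals mark the pair of inverted units, spelled GAANNTTC or TTCNNGAA, where N is any base.
cct-1 at chrII:8185240-8185269, plus strand: atgcgctctgaGAAtaTTCtacaagaattt
cct-2 at chrII:8927464-8927493, plus strand: atattttgagtTTCgaGAAggattttccct
cct-4 at chrII:8283482-8283511, plus strand: aatttaaaagctatagaatTTCtaGAAgaa
cct-5 at chrIII:4508515-4508544, minus strand: atgtgacatttTTCtaGAAgattttcaatt
cct-6 at chrIII:5855917-5855946, minus strand: cctttagaagcgaatttattTTCtaGAAta
cct-7 at chrV:1872021-1872050, plus strand: ctgggaattgtTTCgaGAAggaatattttc
cct-8 at chrIV:1094287-1094316, minus strand: tcaatgctcgcGAAttTTCcgaatttcaaa

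Among the members, cct-5 and cct-8 had an E2F-like word within 75 bp of the summit. This is 2 of 7, against 15.1% of the 3394 LIN-35 summits at promoters. These stretches are shown because the E2F word is, beside the CHR, one through which DREAM is known to bind DNA. Capitals mark the match to TTGCCGC, which is on the strand of the gene at cct-5 and on the opposite strand at cct-8.
cct-5 at chrIII:4508557-4508586, minus strand: aaattgcggacTTGCCGCgtacaccatgac
cct-8 at chrIV:1094330-1094359, minus strand: catctcccgtgGCGGCAAatcgcggcggga

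A reproducible LIN-35 summit lay in the promoter window of all 7 CCT members, though for all but cct-2 it was nearer to a neighbour's start. Replicate 2 alone listed no summit at cct-2. The strength of the peaks differed widely among the members. A gene counted as having a promoter peak when a summit lay in its window, which reached 500 bp upstream of any annotated start and 200 bp into the gene. The main list, called the reproducible set here, is the authors' list of 6712 peaks after their irreproducible discovery rate (IDR) step. It was derived from both replicates, but a peak in it need not be listed by each replicate, as cct-2 shows. Its peaks gave 7 of 7 CCT members a promoter peak, against 19.8% of all protein-coding genes (3959 of 19973). The share was 43.9% for genes with an oppositely oriented neighbour less than 1000 bp upstream, the arrangement of all members but cct-2. With cct-3 the count is 7 of 8. Each member had a single reproducible summit in its window. No test was run on these counts, because the members were named with earlier results of these data known.

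The signal value below is the authors' enrichment score for a peak and can be compared only within a list. It ran from 45.9 to 4903 in the reproducible set. The reproducible peaks are entries of the pooled list, in which both replicates were called together: all 6712 had the same coordinates and signal there. They are therefore not a further measurement beside the replicates. Read depth is unknown, and no error can be set on the signal of any 1 peak.

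The strongest CCT peak was that of cct-6 (WBGene00000381, chromosome III, 5853530 to 5855687, minus strand), which encodes the zeta subunit. The peak spans 5855822 to 5856193 with its summit at 5855992. Its signal was 1418 in the reproducible set, 1342 in replicate 1 and 71.3 in replicate 2. It ranked 134 of 6712 in the reproducible set, 132 of 30000 in replicate 1 and 214 of 26341 in replicate 2. The peak thus stood among the strongest of both replicates.

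Next came cct-1 (WBGene00000377, chromosome II, 8185443 to 8187601, plus strand), the alpha subunit gene, with a peak at 8185062 to 8185343 and a summit at 8185209. Its signal was 697 in the reproducible set, 602 in replicate 1 and 95.4 in replicate 2. The ranks were 399, 443 and 134. In replicate 2 it was the highest of the CCT genes, above cct-6.

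The theta subunit gene cct-8 (WBGene00021934, chromosome IV, 1087108 to 1093920, minus strand) had its peak at 1094208 to 1094493, with the summit at 1094351. Signals were 561 in the reproducible set, 480 in replicate 1 and 79.0 in replicate 2, with ranks of 512, 557 and 174. The epsilon subunit gene cct-5 (WBGene00000380, chromosome III, 4499188 to 4508114, minus strand) had its peak at 4508446 to 4508707, with the summit at 4508586. Signals were 544 in the reproducible set, 523 in replicate 1 and 20.9 in replicate 2, with ranks of 529, 514 and 1424. These neighbours in the order changed places between the replicates, so their order is not settled.

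The eta subunit gene cct-7 (WBGene00020391, chromosome V, 1872246 to 1875505, plus strand) had its peak at 1871850 to 1872105, with the summit at 1871994. Signals were 282 in the reproducible set, 260 in replicate 1 and 19.7 in replicate 2, with ranks of 1035, 1023 and 1557. It lay below the 4 stronger members in both replicates.

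The weakest peaks were at the delta and beta subunit genes. The delta subunit gene cct-4 (WBGene00000379, chromosome II, 8283667 to 8285711, plus strand) had its peak at 8283264 to 8283607, with the summit at 8283436. Signals were 94.3 in the reproducible set, 82.6 in replicate 1 and 8.16 in replicate 2, with ranks of 3493, 3589 and 4803. In both replicates it was the lowest of the members with a peak.

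The beta subunit gene cct-2 (WBGene00000378, chromosome II, 8927741 to 8929815, plus strand) had the narrowest peak, 87 bp from 8927373 to 8927459, with the summit at 8927429. Its signal was 91.9 in the reproducible set and 95.7 in replicate 1, with ranks of 3591 and 3104. Replicate 2 listed no summit in its window, and the nearest replicate 2 summit lay 579 bp away with a signal of 2.24. Of the replicates, only replicate 1 thus listed the cct-2 peak.

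The gamma subunit gene cct-3 (WBGene00018782, chromosome II, 2233540 to 2243539, plus strand) had no reproducible promoter peak. The pooled relaxed list, which includes background, held a summit 65 bp upstream of its start with a signal of 13.1 and a rank of 17518 of 30000. Replicate 1 listed a summit 48 bp downstream of the start with a signal of 9.48 and a rank of 20834. Replicate 2 listed none. These values lie far below those of the weakest member in the same lists.

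**Figure D1:**
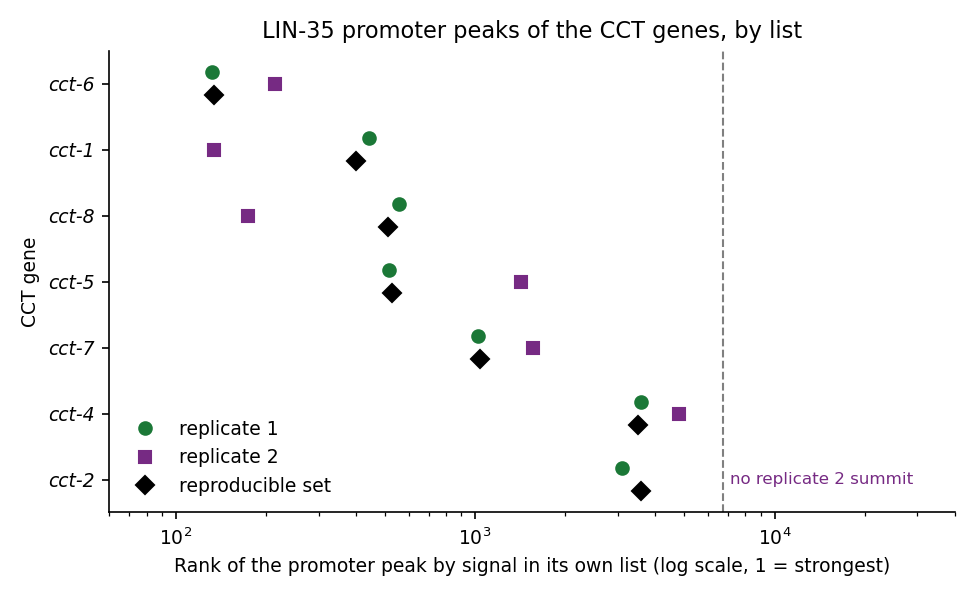
Rank of the strongest promoter peak of each CCT gene by signal within its own list, on a log axis where 1 is the strongest; circles are replicate 1, squares replicate 2 and diamonds the reproducible set. The dashed line marks rank 6712, the size of the reproducible set; cct-6 ranks from 132 to 214 in all lists, and cct-2 has no replicate 2 summit.

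Replicate 1 listed a summit in the window of all 7 members, and replicate 2 in that of 6, all but cct-2. Among all protein-coding genes the shares were 38.2% for replicate 1 and 35.6% for replicate 2, since these lists include background. With each replicate cut to its 6712 strongest peaks, the counts were again 7 and 6, against 19.8% and 17.8% of all protein-coding genes. The pooled relaxed list gave all 7 members and 38.3% of all genes a summit.

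The summits were placed alike by the replicates. At cct-6 both replicates put the summit at the same base as the reproducible set. For the other 5 members with a replicate 2 peak, the replicates' summits lay 2 bp (cct-8), 3 bp (cct-1), 6 bp (cct-5), 8 bp (cct-7) and 18 bp (cct-4) apart. The −log10 q-value was 4.01 for each of the 7 peaks in the reproducible set, which is also the highest value of that list, so it does not order them. In replicate 2 it was 3.67, that list's highest value, for 5 members and 3.14 for cct-4.

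The CCT peaks as a group lay in the upper part of the signal range, with cct-4 and cct-2 as exceptions. The median signal of the strongest promoter peak was 544 over the 7 CCT genes and 141 over the 3959 protein-coding genes with a promoter peak. It was 224 over such genes with an oppositely oriented neighbour less than 1000 bp upstream, the arrangement of 6 of the 7 members. Of all 3959 genes with a promoter peak, 95.9% had a lower signal than cct-6, 87.8% a lower one than cct-1, 84.7% than cct-8, 84.1% than cct-5 and 71.5% than cct-7. The corresponding shares were 34.0% for cct-4 and 33.0% for cct-2, below the middle of the distribution. In a list cut to its 3356 strongest peaks, 5 of 7 members kept a peak and these 2 did not, against 12.7% of all genes with one.

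**Figure D2:**
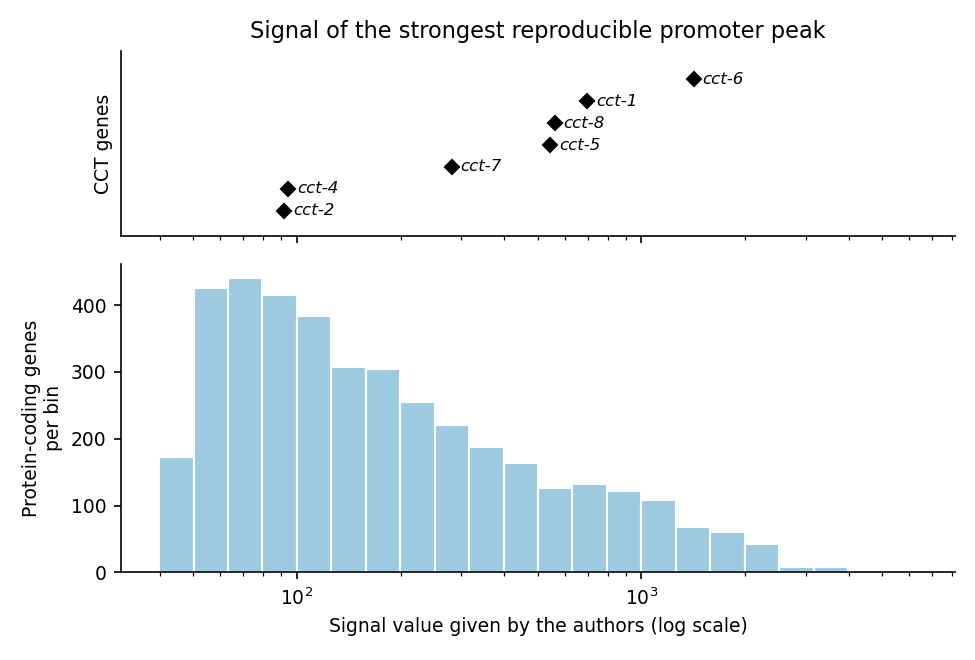
Signal value given by the authors for the strongest reproducible promoter peak, on a log axis, for each of the 7 CCT genes (diamonds, top) and for all 3959 protein-coding genes with a promoter peak as a histogram (bottom). 5 CCT genes lie between 282 and 1418, right of the overall median of 141 and of the median of 224 over genes with a close oppositely oriented neighbour, and cct-4 and cct-2 lie left of it at 94.3 and 91.9.

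Genes with a peak most like that of cct-6 were sought over the log2 signal in the reproducible, replicate 1 and replicate 2 lists, among the 3661 other protein-coding genes with a promoter summit in all of them, and likeness was the straight-line distance between these 3 values. Leaving out the gene that shares the peak, the closest were ify-1, the securin gene, and rpl-22, a ribosomal protein gene, which share a single peak. Its signals were 1425 in the reproducible set, 1353 in replicate 1 and 73.2 in replicate 2, a distance of 0.0399. The next was cyn-1, a cyclophilin gene, with signals of 1413, 1332 and 74.4 and a distance of 0.0636.

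The summits of 6 CCT members, all but cct-2, lay in a gap of under 1000 bp to an oppositely oriented neighbour. In all 7 members, the nearest protein-coding gene upstream lies on the other strand, so that both are transcribed away from the space between them. This arrangement holds for 45.4% of all protein-coding genes. The gap between the gene models was under 1000 bp for 6 members, from 330 bp at cct-6 to 740 bp at cct-5, which 17.5% of all genes share. At cct-2 it was 1189 bp, and at cct-3 1069 bp.

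Genes with such a close neighbour bore a promoter peak more often than the rest of the genome. A reproducible summit fell in the promoter window of 43.9% of the 3503 genes with such a gap under 1000 bp, against 14.7% of the 16470 other genes. The 6 CCT members with a close neighbour are thus to be read against 43.9% rather than 19.8%.

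The same 6 peaks also lay in the promoter window of the neighbour. The cct-1 summit was 234 bp upstream of cct-1 and 186 bp upstream of mig-5, a Dishevelled gene of Wnt signalling. The cct-4 summit was nearly central, 231 bp upstream of cct-4 and 228 bp upstream of nst-1, which encodes nucleostemin. At cct-6 the summit was 305 bp upstream of the CCT gene and 26 bp upstream of alh-9, an aldehyde dehydrogenase gene.

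At cct-5 the summit was 472 bp upstream of cct-5 and 269 bp upstream of F25F2.1. At cct-7 it was 252 bp upstream of cct-7 and 187 bp upstream of T10B5.4, and 14 bp inside T10B5.13, a non-coding RNA gene in the gap. At cct-8 it was 431 bp upstream of cct-8 and 190 bp upstream of Y55F3AR.2. In each of these 6 the neighbour's start was the nearer one. The other 6 summits overlapped no annotated gene, and that of cct-2, 312 bp upstream, lay in no other gene's window.

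Assignment to a gene therefore depended on the rule. When each summit was given to the nearest protein-coding start within 2 kb, only cct-2 kept its peak (1 of 7), against 22.6% of all protein-coding genes. When the window was narrowed to 250 bp on each side, cct-1 and cct-4 had a peak (2 of 7), against 14.2% of all genes. When it was widened to 1000 bp upstream, all 7 did, against 24.1%. Of all 3959 genes with a promoter peak, 82.0% were nearest to the summit of their strongest peak, and 35.8% shared that peak's summit with the window of another protein-coding gene.

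The summits lay farther upstream than was usual. The median distance to the nearest annotated start of the gene was 305 bp over the CCT members, with a range of 231 to 472 bp, and 163 bp over the 3959 genes. Many worm transcripts are trans-spliced, so an annotated start can lie downstream of the place where transcription begins. Where transcription of the CCT genes begins was not measured here.

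**Figure D3:**
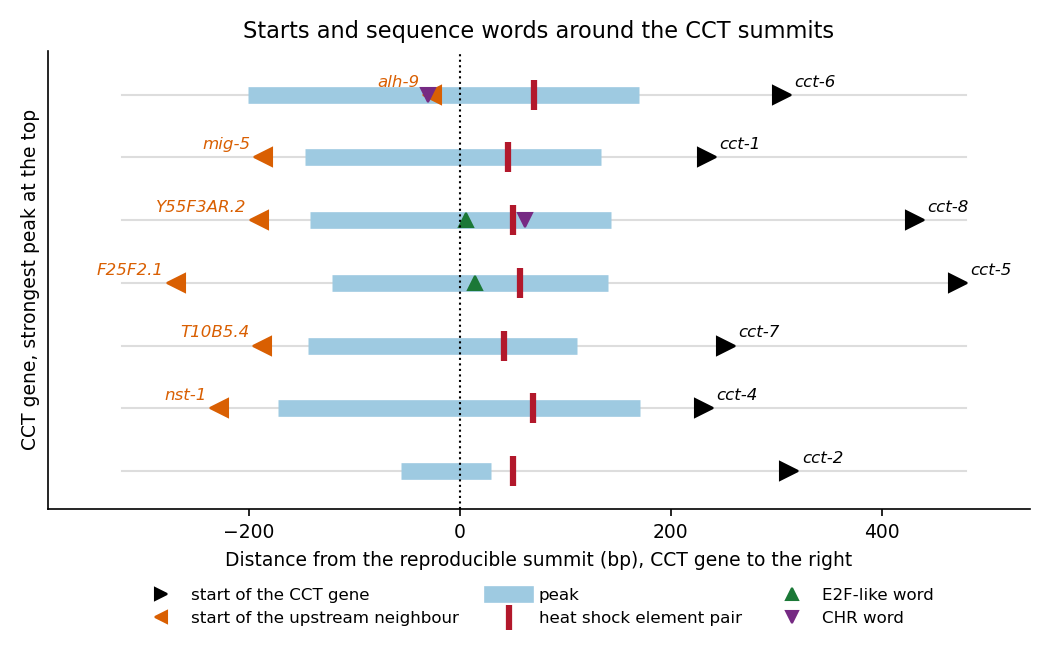
Layout around the reproducible summit of each CCT gene, drawn to scale in bp from the summit with the CCT gene to the right and the strongest peak at the top; bars are peaks, triangles on the line are annotated starts and small marks are sequence words. In 6 genes the neighbour's start lies 26 to 269 bp left of the summit, nearer than the CCT start at 231 to 472 bp; for cct-2 the neighbour lies outside the plot.

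In the direction of the CCT gene, the pair of heat shock units within 75 bp of the reproducible summit lay between the summit and the gene in all 7 members. Most of these pairs were 50 bp or more away, so the count was 2 of 7 within 50 bp, against 5.72% of promoter summits. With the summits of replicate 2 alone, the count within 75 bp was 5 of the 6 members that had a summit there. The share over all replicate 2 promoter summits was not computed. The centre of the pair was 42 bp downstream of the reproducible summit at cct-7, 46 bp at cct-1, 50 bp at cct-2 and cct-8, 57 bp at cct-5, 69 bp at cct-4 and 70 bp at cct-6. Counted from the annotated start, it was 162 bp (cct-4) to 415 bp (cct-5) upstream. At cct-2 the pair lay outside the narrow peak itself. None of the 7 windows held a pair on the other side of the summit. The sequences printed above are these words.

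Over the 3959 genes with a promoter peak, 11.8% had such a pair within 75 bp of the summit and 5.71% had it on the side of the gene. A pair at least 40 bp downstream of the summit was found for 7 of 7 CCT genes and for 3.89% of the 3959, a distance chosen after the CCT values were seen. By peak rather than by gene, 11.5% of the 3394 reproducible summits in promoter windows, 10.7% of all 6712 reproducible summits and 16.7% of the 151-bp stretches that end at each protein-coding start held the pair. The pair was less frequent close to summits than away from them over all genes, with 18 pairs in each 10-bp bin next to the summit and 62 and 63 in the fullest bins on either side. These bins count by gene, so a pair at a peak shared by oppositely oriented genes can enter once on each side. A longer form, with an added unit in the same alternating pattern beside the pair, was in none of the 7 CCT windows and in 0.783% of the 3959. At cct-4 and cct-6 the window ended too soon after the pair for an added unit on the side of the gene to be seen.

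The pair is a short word, and at a larger scale it is common. In the 500 bp upstream of the outermost start, 48.4% of all protein-coding genes had at least 1. There cct-5 and cct-8 had 3 pairs each, cct-1, cct-6 and cct-7 had 2, cct-2 and cct-4 had 1, and cct-3 had 1, centred 18 bp upstream of its start. A match is a stretch of letters, and binding of HSF-1 was not measured.

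**Figure D4:**
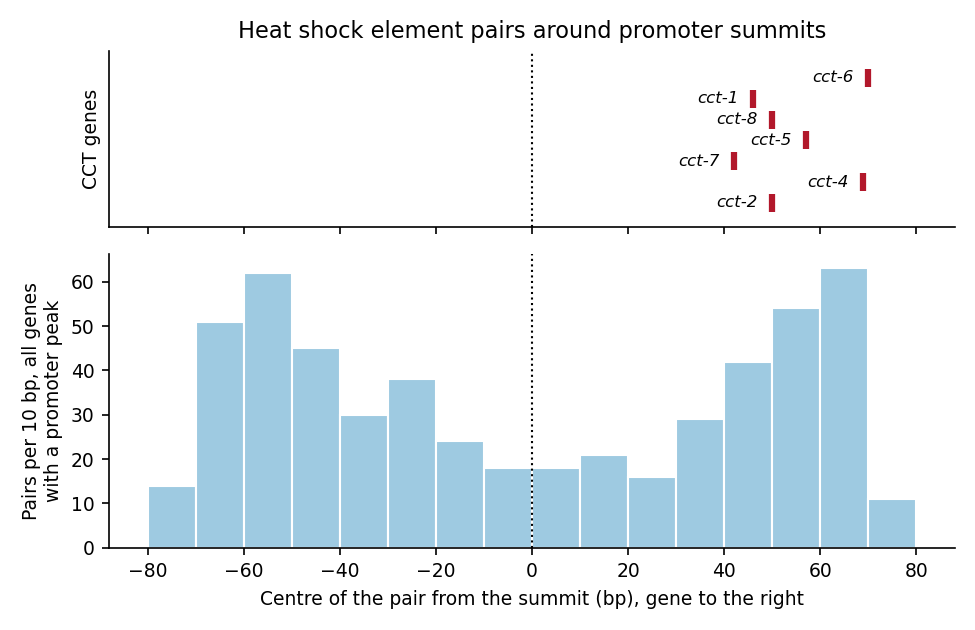
Centre of each heat shock element pair relative to the reproducible summit, in bp with the gene to the right, for the 7 CCT genes (top) and for all 3959 protein-coding genes with a promoter peak (bottom, pairs per 10-bp bin). The 7 CCT pairs lie 42 to 70 bp to the right of the summit, and pairs of all genes lie on both sides. Counts are by gene, so a pair at a peak shared by oppositely oriented genes can enter once on each side. The outermost bins are only partly inside the 151-bp window.

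Words known from DREAM were each found at a minority of the CCT summits. The E2F-like words searched on both strands were TTCCCGC, then the form TTGGCGC, then the form TTCGCGC, then the form TTGCCGC. Any of them lay within 75 bp of 2 of 7 CCT summits, against 15.1% of the 3394 promoter summits, 12.7% of all reproducible summits and 4.49% of the stretches at gene starts. The match was centred 14 bp downstream of the summit at cct-5 and 6 bp downstream at cct-8. A CHR word, spelled TTTGAA or else spelled TTCGAA, was found at cct-6, 30 bp on the side of alh-9, and at cct-8, 62 bp on the side of the CCT gene. This is 2 of 7, against 39.0% of promoter summits, 34.6% of all reproducible summits and 45.8% of the stretches at gene starts. None of these words overlapped a heat shock pair.

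The GATA word of gut transcription factors, spelled TGATAA or else spelled AGATAA, was in none of the 7 windows, against 25.2% of promoter summits, 29.8% of all reproducible summits and 28.3% of the stretches at gene starts. The share of G and C in the 151-bp window was 53.0% at cct-7 and 52.3% at cct-8, and from 38.4% to 43.0% in the other 5, against a median of 41.1% over promoter summits. The absence of a word says only that these letters are not in these windows.

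Within the CCT gene bodies, LIN-35 summits were weaker than at the promoters. The pooled relaxed list held from 1 (cct-1) to 12 (cct-5) summits inside each member's gene model and outside its promoter window. The strongest of these had a signal of 57.4 and a rank of 5514, in cct-5, and it was the only 1 of them that is in the reproducible set. In the other 6 members the strongest ran from 16.2 (cct-4) to 27.7 (cct-6), against promoter signals of 91.9 or more in the same list. At cct-3 it was the other way: the strongest of 7 gene body summits had a signal of 15, against 13.1 at its promoter. The same comparison was not made over all genes.

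Downstream, cct-2, cct-5, cct-6 and cct-8 are followed on the same strand by a gene within 260 bp, the largest of these gaps. So is cct-3, by F54A3.2 at 102 bp. The share of all protein-coding genes with such a neighbour was not computed. The gap is 25 bp to mrpl-50, a mitochondrial ribosomal protein gene, after cct-2. It is 94 bp to csn-4, a COP9 signalosome gene, after cct-8. It is 142 bp to atf-7, a bZIP factor gene, after cct-5, and 260 bp to ddx-23, a DEAD-box RNA helicase gene, after cct-6. Closely spaced genes of one strand in worms can be transcribed together as operons, which the annotation used here does not mark.

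Prefoldin genes, which encode a partner of CCT, also had promoter peaks. Prefoldin hands unfolded actin and tubulin to CCT. A promoter peak was found at 5 of 6 prefoldin genes, against 19.8% of all protein-coding genes, with signals of 1864 at pfd-6, 1005 at pfd-5, 424 at pfd-1 and 271 at pfd-3, and none at pfd-2. The median signal of the 5 was 424, against 544 over the CCT genes. The heat shock pair was within 75 bp of the summit at 3 of these 5 genes, against 11.8% of the 3959 genes with a promoter peak. They were pfd-3 (49 bp), pfd-4 (43 bp) and pfd-5 (10 bp). Each pair was on the side of the gene, against 5.71% of the 3959. At pfd-3 the summit was only 19 bp upstream of the start, so its pair lay past that start. The gene pfd-4, with a signal of 74.7, is named because its pair was seen.

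Of the genes of proteins that CCT folds, a minority of the actin and tubulin genes had a promoter peak in the reproducible set. No difference from the 19.8% of all protein-coding genes was tested. A peak was found at 2 of 5 actin genes, act-2 (signal 457) and act-5 (155), and not at act-1 or act-3. The genes act-1, act-2 and act-3 are near-identical copies, and how reads were divided among them is not stated. Of 16 tubulin genes, tba-2 (3521) and tbb-1 (636) had one, and ben-1 and mec-12 are the first by name without one. Among the 6712 strongest peaks of replicate 2, a summit lay in the window of 4 of 5 actin and 3 of 16 tubulin genes. The share of all protein-coding genes there was 17.8%. Of the WD40 proteins that CCT is known to fold in other species, fzy-1, the activator of the anaphase-promoting complex in mitosis, had a peak (500) and fzr-1 had none.

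Of 4 tubulin folding cofactor genes, tbcd-1 (191) and tbcb-1 (99.3) had a promoter peak, and tbca-1 and tbce-1 had none. The mitochondrial chaperonin gene hsp-60 had none in the reproducible set, but had a summit among the 6712 strongest peaks of replicate 2. No heat shock pair lay within 75 bp of the summit in any of the actin, tubulin, cofactor or WD40 genes with a peak, 7 genes in all, against 11.8% of the 3959 genes with a promoter peak. The proteasome, another large housekeeping complex, had promoter peaks at 27 of 33 genes, against 19.8% of all protein-coding genes, with a median signal of 253. The strongest were at rpn-11 (1330), rpn-5 (1059), rpt-1 (1035) and pas-5 (929), and pas-1 and pbs-5 had none. A heat shock pair was at 4 of the 27 proteasome summits (14.8%), near the 11.8% of all genes with a promoter peak, and on the side of the gene at 1.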

How the data were processed

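The members and lists were chosen with earlier results of these data known. Per the notes deposited with the files, the authors called peaks and background for replicate 1, replicate 2 and both pooled against a control alignment, and derived an IDR list from these, in ce11. For the caller, the aligner and the threshold of the IDR step, names and values were not given in the sources used here. In the lists, the deposited signal and −log10 q-value are the authors' values per peak. Other ce10 lists were not used.

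Gene models came from Ensembl release 115 (WBcel235, the assembly of ce11) and sequence from the RefSeq genome of that assembly. A summit is the peak start plus the deposited offset. The strongest summit in a window stood for a gene. Motifs were searched on both strands. The search for heat shock pairs within 75 bp was listed with the other motifs; its other widths and replicate versions, the sides and distances of pairs, their counts in 500 bp and the comparison with close neighbours were added after values were seen. Assignment, overlap and motif search were checked on data with planted answers. Named genes were the members, their neighbours, the strongest and first unbound genes of each related list, and the 3 most like cct-6. Alternatives were other windows, lists, overlaps and each replicate alone. Python 3.11.15, numpy 2.4.6 and pandas 2.3.3 were used. Replicates were not shown to be separate cultures.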

Additional observations from a re-analysis of the deposited data

How the results depend on the processing

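The count of CCT genes with a promoter peak fell to 2 of 7 in the window of 250 bp either side, to 1 with the nearest start, and to 4 when a peak had to overlap one of each replicate list by 50% of both lengths, without cct-2, cct-6 and cct-8, and was 5 to 7 under the other alternatives. Without 1 replicate it was 6 to 7. Prefoldin fell to 3 of 6 with the nearest start. The share of all protein-coding genes was 14.2% in the 250-bp window, 24.1% in the 1000-bp window, 22.6% with the nearest start, 21.6% with any overlap of peak and window, 12.7% for the stronger 3356 peaks, 18.4% and 15.0% for the overlaps of 1 bp and 50%, 38.3% for the pooled list, and 17.8% to 19.8% without 1 replicate. The median distance was 279.5 to 305 bp without 1 replicate and 232.5 bp in the 250-bp window, and the median rank 557 to 819 and 1946. The heat shock pair was at 2 of 7 CCT genes within 50 bp of the summit, where all pairs but those of cct-1 and cct-7 end outside, against 5.72% of promoter summits. Within 150 bp it was at 7 of 7, against 28.5%. Within 75 bp it was at 7 of 7 without replicate 2, and without replicate 1 at 5 of the 6 members with a replicate 2 summit. For these replicate versions no share over all genes was computed. These alternatives for the pair were chosen after seeing the data. The E2F count stayed at 2 throughout. Read depth is unknown and limits every value of a single peak. No paired analysis was possible because there was 1 group.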
